A study of Mus musculus with 4 samples.

Results

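Purkinje cells are the large inhibitory neurons of the cerebellar cortex and its only output. They were followed here through 8 genes known to mark them, Pcp2, Car8, Itpr1, Slc1a6, Ppp1r17, Rgs8, Gng13 and Skor2. The genes were taken by symbol from a table of raw read counts for 55414 mouse genes, where all 8 were found and all 8 passed the expression filter. The table holds 4 bulk messenger RNA libraries from mouse brain, 2 labelled Wild-type (WT) and 2 labelled Stra8-KO (KO). The column names of both KO libraries carry a suffix that those of the WT libraries lack. What it marks is not stated, and anything it stands for cannot be told apart from genotype. The series design describes mice of both genotypes that carry the pStra8-GFP reporter, a green fluorescent protein driven by the Stra8 promoter, and GFP-positive cells sorted from the hippocampus, whereas the sample labels give brain as the tissue. The stated question is how the transcriptome of such cells differs without Stra8, a gene best known for starting meiosis under retinoic acid. The sources used here do not give the age, sex or strain of the mice, how the KO allele was made or how many animals stand behind a library. The p-values below therefore measure only the spread between these libraries, which may be technical.

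The Purkinje cell receives glutamate from parallel and climbing fibres. Parallel fibre bursts act through the metabotropic receptor mGluR1, whose G protein activates phospholipase C and so makes inositol trisphosphate, which opens the calcium store through the receptor encoded by Itpr1. Several Purkinje genes act on this route or on G protein signalling beside it. Some of them are also transcribed in other brain regions, Itpr1 and Rgs8 among them, while Pcp2 is close to confined to Purkinje cells within the brain and is otherwise known from the retina.

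The libraries held 71097417 to 82172740 counts each. Between 72.8% and 74.3% of the counts from 1 to 20 were even numbers, as arises when both mates of a read pair are counted, so the precision is lower than the read numbers alone would give. Stra8 (ENSMUSG00000029848), the targeted gene, had 5 and 1 reads in the WT libraries and 7 and 4 in the KO libraries and did not pass the filter, so it could not check the genotype labels. Markers of the hippocampus were present in every library, with summed levels of 824.5 to 897.4 CPM (counts per 1000000 counts of the library after scaling) for 14 dentate granule cell markers and 544 to 565 CPM for 10 CA1 markers. Much of the dentate sum came from Pitpnm2 and Calb1, the latter also known from Purkinje cells. Their WT means were 351.5 and 129 CPM, against 56.6 CPM for Prox1. Markers of regions outside the hippocampus were present as well, among them 15 cerebellar granule cell markers at 643 to 821 CPM and 11 striatal markers at 1210 to 1417 CPM.

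Promoter sequences of 4 of the 8 genes, Pcp2, Slc1a6, Rgs8 and Gng13, were in the RefSeq promoter table (build GRCm38.p6). Those of Pcp2, which fell most, Slc1a6, which fell less, and Gng13, for which no difference was called, are shown to set the promoters of members with different responses side by side. Each is the stretch of 250 bases that ends just before the most upstream transcription start listed, read 5′ to 3′ on the strand of the gene. Capitals mark the core motif AGGTCA of the nuclear receptor RORA, which Purkinje cells need to develop, and the palindrome CCCNNGGG bound by EBF factors. Both were searched on both strands by these letters alone, without regard to the bases beside them, so a match is not a known binding site. Pcp2 lies on the minus strand at chr8:3625548-3625797, Slc1a6 on the plus strand at chr10:78780246-78780495 and Gng13 on the plus strand at chr17:25716922-25717171.
Pcp2: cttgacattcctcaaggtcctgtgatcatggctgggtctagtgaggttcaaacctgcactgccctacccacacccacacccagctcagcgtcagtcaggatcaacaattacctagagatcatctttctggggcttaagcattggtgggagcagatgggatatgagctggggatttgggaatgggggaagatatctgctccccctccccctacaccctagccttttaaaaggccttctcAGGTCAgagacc
Slc1a6: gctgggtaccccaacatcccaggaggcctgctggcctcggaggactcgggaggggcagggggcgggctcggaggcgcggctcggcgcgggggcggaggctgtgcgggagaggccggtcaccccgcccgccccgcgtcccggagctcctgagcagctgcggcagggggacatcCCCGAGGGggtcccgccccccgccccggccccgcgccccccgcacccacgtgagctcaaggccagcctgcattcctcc
Gng13: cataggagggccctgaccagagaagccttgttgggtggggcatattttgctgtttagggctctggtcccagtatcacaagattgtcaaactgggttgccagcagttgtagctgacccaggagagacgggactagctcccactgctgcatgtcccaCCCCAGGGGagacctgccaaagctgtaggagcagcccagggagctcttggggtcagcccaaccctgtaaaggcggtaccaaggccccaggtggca

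The Pcp2 stretch held 1 RORA motif, which begins 12 bases before the start. Windows of 300 bases around the starts (250 before, 50 after) were searched for the counts that follow. The RORA motif was in 3 of the 4 Pcp2 windows, in 1 of the 3 Rgs8 windows and in 0 of the 3 windows of Slc1a6 and Gng13, against 16.3% of all 32851 windows. The windows of 1 gene overlap in part, so the same site can be counted more than once. This was so for Pcp2, where the RORA matches of windows 1 and 2, numbered from the most upstream start, are the same site. The EBF palindrome was in the Slc1a6 window, 78 bases before the start, and in 1 of the 2 Gng13 windows, where 2 overlapping matches begin 95 and 94 bases before it, against 13.7% of all windows. The motif CNCCTCAG, known from promoters bound by STRA8 in germ cells, was in 1 window each of Pcp2, Rgs8 and Gng13, against 7.94% of all windows. The E-box CANNTG was in all 10 member windows, and in 72.3% of all windows. These matches describe the letters only.

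In the KO libraries 6 of the 8 Purkinje cell genes were lower and 2 did not pass the test. The test was edgeR's quasi-likelihood test over 21592 genes with 2 libraries in each genotype, and a gene was called at a Benjamini-Hochberg adjusted p under 0.05. Over all genes tested 3.19% were called lower, 3.35% higher and 6.53% in either direction. The share called lower rose with abundance, from 3.36% of genes with a mean of 5 to 20 CPM to 9.45% of those over 100 CPM. For 7 of the 8 genes both KO libraries lay below both WT libraries, which held for 22.9% of all genes tested, and 22.8% had both KO libraries above. The median log2 fold change (KO over WT) was -0.66 for the 8 genes and -0.00038 for all genes tested. In bulk libraries fewer Purkinje cells and less RNA per Purkinje cell cannot be told apart. For genes also transcribed elsewhere, such as Itpr1 and Rgs8, less RNA from other cells cannot be told apart from these either.

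**Figure D1:**
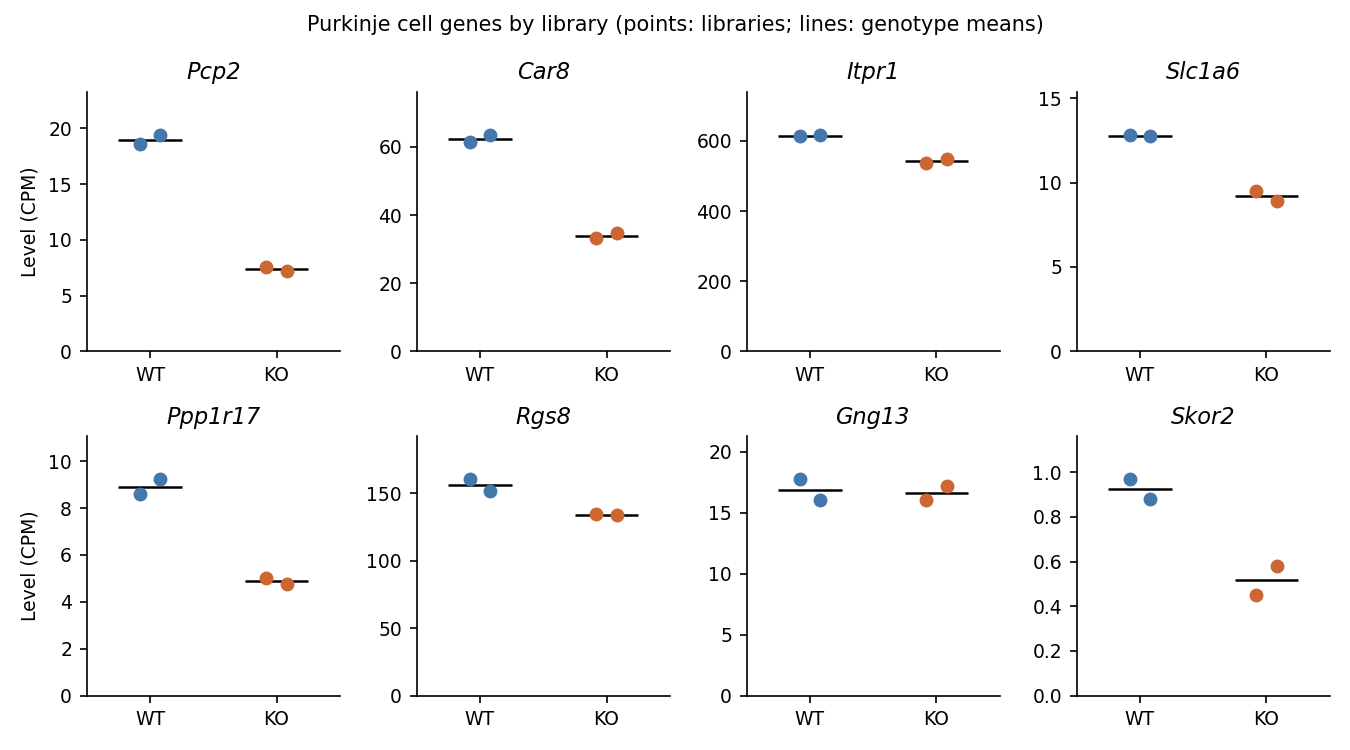
Level of each Purkinje cell gene in CPM (vertical axes, each from 0) by genotype, with a point per library and a line at the mean of the 2 libraries. The KO points lie below the WT points in 7 of the 8 panels, and the genotypes overlap for Gng13.

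Pcp2 (Purkinje cell protein 2, ENSMUSG00000004630) encodes a small protein that binds inhibitory G protein alpha subunits. WT libraries 1 and 2 held 18.6 and 19.4 CPM of it, and KO libraries 1 and 2 held 7.55 and 7.23 CPM. The KO mean was 38.9% of the WT mean, and the gap between genotypes was far wider than that between libraries of 1 genotype. The log2 fold change of -1.36 (SE 0.071, 95% interval -1.51 to -1.21, edgeR adjusted p = 2.12e-12) was the most negative of all tested genes with a mean of at least 5 CPM. In the GENCODE M21 annotation the exons of Pet100, a gene for a mitochondrial assembly factor on the opposite strand, cover 51.5% of the exon bases of Pcp2. Whether reads were counted by strand is not stated, so reads of the shared bases cannot be assigned to either gene with certainty. Pet100 itself was at 14.5 and 13.9 CPM in WT and 15.0 and 15.1 CPM in KO and was not called (edgeR adjusted p = 0.56).

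Skor2, which encodes a transcriptional corepressor that Purkinje cells need for their differentiation, had the lowest level of the 8. It had 78 and 72 counts in WT and 37 and 41 in KO, which correspond to 0.967 and 0.878 CPM against 0.452 and 0.579 CPM. Both KO libraries were below both WT libraries. The log2 fold change of -0.84 had a 95% interval of -1.44 to -0.25 and was not called (edgeR adjusted p = 0.0888). With no expression filter its adjusted p was 0.0473, and it ranged from 0.0473 to 0.357 over the alternatives that gave one.

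The calcium store genes Itpr1 and Car8 both fell, by unequal amounts. Itpr1, the inositol trisphosphate receptor of the endoplasmic reticulum, was at 613 and 616 CPM in WT and 539 and 548 CPM in KO. This fall to 88.3% of the WT mean (log2 fold change -0.18 with SE 0.015, edgeR adjusted p = 5.39e-09) was small but exceeded the spread between libraries. Car8 encodes a carbonic anhydrase-related protein without enzyme activity, which binds the Itpr1 receptor and lowers its affinity for inositol trisphosphate. It was at 61.4 and 63.4 CPM in WT and 33.2 and 34.7 CPM in KO. The KO mean was 54.4% of WT, a log2 fold change of -0.88 (SE 0.037), with an edgeR adjusted p of 4.31e-14. The 95% intervals of the partners did not overlap, with -0.96 to -0.80 for Car8 and -0.21 to -0.15 for Itpr1.

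Slc1a6 encodes EAAT4, the glutamate transporter of Purkinje cell spines. Its level was 12.8 CPM in both WT libraries against 9.52 and 8.89 CPM in KO, so the genotypes were well separated. KO stood at 72.0% of WT, a log2 fold change of -0.47 (SE 0.074), with an edgeR adjusted p of 0.000118. Ppp1r17, or G-substrate, is a phosphatase inhibitor that cyclic GMP-dependent kinase phosphorylates. It was at 8.60 and 9.22 CPM in WT and 5.03 and 4.74 CPM in KO. The KO mean was 54.9% of WT, close to the share for Car8 (log2 fold change -0.86 with SE 0.093, edgeR adjusted p = 5.54e-07).

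The G protein genes had the smallest log2 fold changes together with Itpr1. Rgs8, which speeds the shut-off of inhibitory and Gq-type G protein signals, was at 160 and 152 CPM in WT and 135 and 134 CPM in KO. It fell to 86.0% of WT (log2 fold change -0.22 with SE 0.024, edgeR adjusted p = 1.09e-06). Gng13, a G protein gamma subunit also known from taste and olfactory cells, was at 17.71 and 16.02 CPM in WT and 16.01 and 17.19 CPM in KO. The genotypes overlapped, and Gng13 was not called (log2 fold change -0.024, 95% interval -0.159 to 0.111, edgeR adjusted p = 0.92). The interval corresponds to a KO level between 0.896 and 1.08 times the WT level, and the sign turned without WT library 1 (0.051) and without KO library 1 (0.028). In GENCODE M21 exons of Chtf18 on the opposite strand cover 51.6% of the exon bases of Gng13. Chtf18 had 1.33 to 1.81 CPM over the 4 libraries and was not called (edgeR adjusted p = 0.711).

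**Figure D2:**
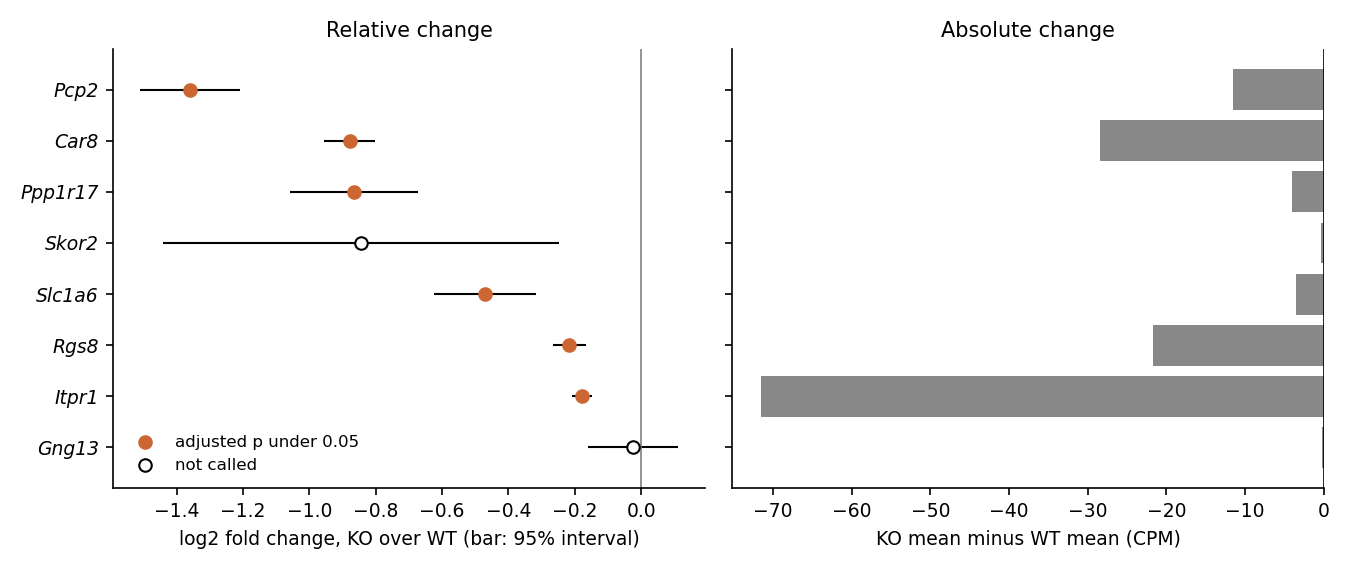
Left, log2 fold change of KO over WT for each Purkinje cell gene (points) with its 95% interval (bars); filled points were called and open points were not. Right, KO mean minus WT mean in CPM for the same genes, not scaled to exon length. The ranking by relative change is headed by Pcp2 (-1.36). That by absolute change in CPM is headed by Itpr1 (-71.6 CPM), the member with the most exon bases.

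Ordered by relative change, the 95% interval of Pcp2 lay apart from those of Car8 and Ppp1r17, which overlapped each other. The interval of Skor2 overlapped those of Pcp2, Car8, Ppp1r17, Slc1a6 and Rgs8 and was too wide to place it. The interval of Slc1a6, -0.63 to -0.32, lay between those of Ppp1r17 and Rgs8 and met neither. Those of Rgs8 and Itpr1 overlapped, and the interval of Gng13 overlapped that of Itpr1 but reached past 0. Differences between members were read from these intervals and were not tested.

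Ordered by absolute change in CPM, which is not scaled to exon length, the picture was different. Itpr1 fell by 71.6 CPM, Car8 by 28.4 CPM, Rgs8 by 21.8 CPM and Pcp2 by 11.6 CPM. Ppp1r17 fell by 4.02 CPM and Slc1a6 by 3.57 CPM. The KO minus WT difference was -0.407 CPM for Skor2 and -0.263 CPM for Gng13, neither of which was called. The 8 genes together gave 894 and 890 CPM in WT and 745 and 755 CPM in KO, so their sum in KO was 84.1% of WT. Itpr1 supplied 68.9% of the summed WT level and 50.6% of the summed difference. Without it the sum was 280 and 273 CPM in WT and 207 CPM in both KO libraries, 74.7% of WT. Length weighs in these CPM values and shares, as Itpr1 has 18319 exon bases against 3853 for Car8 and 1828 for Pcp2. Per kilobase of exon the WT and KO means were 33.6 and 29.65 CPM for Itpr1. They were 16.2 and 8.82 for Car8 and 10.4 and 4.04 for Pcp2, both larger falls.

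Levels of different genes were compared per length, as CPM per kilobase of exon (union of the GENCODE M21 exons). In WT the order was Itpr1 (33.6), Gng13 (21.8), Car8 (16.2), Rgs8 (16.2), Pcp2 (10.4), Slc1a6 (5.94), Ppp1r17 (5.07) and Skor2 (0.294 CPM per kilobase). Car8 and Rgs8 did not differ beyond the spread of the WT libraries, with 15.9 and 16.5 against 16.6 and 15.7 CPM per kilobase. In KO Rgs8 stood at 13.9 and Car8 at 8.82 CPM per kilobase, so these neighbours had come apart. Pcp2 was above Slc1a6 in both WT libraries, whereas in KO both Slc1a6 values, 4.422 and 4.132 CPM per kilobase, lay above both Pcp2 values, 4.13 and 3.954. The nearest of these KO values were almost equal. The lengths of Pcp2 and Gng13 include the bases shared with their antisense neighbours, so their places in this order are uncertain.

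Among 27 further genes known from Purkinje cells, 10 were lower, 2 were higher and 15 did not pass the test, with a median log2 fold change of -0.066. Over all genes tested 3.19% were called lower and 3.35% higher, and 9.45% of those with a mean over 100 CPM were lower. Both KO libraries were below both WT libraries for 15 of the 27, against 22.9% of all genes tested. Those of the 27 called lower included Homer3, Atp2a3, Arhgef33, Lhx1 and Calb1. Homer3, the scaffold that ties mGluR1 to the calcium store, was at 36.9 and 36.2 CPM in WT and 25.2 and 23.2 CPM in KO (log2 fold change -0.59, SE 0.048). Atp2a3, a calcium pump of the store, was at 24.6 and 24.2 CPM in WT and 16.3 and 16.8 CPM in KO (log2 fold change -0.56, SE 0.055). These falls were each several times larger than the spread within a genotype.

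Arhgef33 fell by 0.999 on the log2 scale, from 9.31 and 7.85 CPM to 4.21 and 4.38 CPM. Lhx1, a transcription factor of Purkinje cell development, fell by 0.90, from 4.95 and 4.41 CPM to 2.59 and 2.40 CPM. Calb1, the calcium buffer calbindin, fell by 0.17, from 130 and 128 CPM to 117 and 113 CPM. Calb1 also stands in the list of dentate granule cell markers. The edgeR adjusted p of these 5 genes lay between 5.39e-09 and 3.44e-05.

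The genes that went the other way were Pcp4 and Foxp2, named here because their count is small. Pcp4 (Purkinje cell protein 4), a calmodulin-binding peptide that is also a marker of hippocampal area CA2, was at 17.8 and 17.5 CPM in WT and 22.0 and 20.4 CPM in KO (log2 fold change 0.27, edgeR adjusted p = 0.00447). Without KO library 1 its log2 fold change was 0.21 and it was not called (edgeR adjusted p = 0.087). Foxp2, a forkhead transcription factor also known from striatum and cortex, was at 22.4 and 22.5 CPM in WT and 26.7 and 26.3 CPM in KO (log2 fold change 0.24, edgeR adjusted p = 0.00251). Rora was at 101 to 102 CPM in all 4 libraries and was not called (edgeR adjusted p = 0.993).

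In the route from mGluR1 to the calcium store, 9 of 33 genes other than Itpr1 were lower, 3 were higher and 21 did not pass the test, with a median log2 fold change of -0.011. Homer3, Atp2a3 and Calb1, described above, were among those lower. Over all genes tested 3.19% were called lower and 3.35% higher, with 9.45% lower among those with a mean over 100 CPM. Orai2, a calcium entry channel of the plasma membrane, was at 83.9 and 84.1 CPM in WT and 73.4 and 73.6 CPM in KO (log2 fold change -0.19, edgeR adjusted p = 3.79e-05). The 3 that rose were Homer1, Calm2 and Plcb1, the last named because the count is small. Homer1, the relative of Homer3 found across the forebrain, was at 219 and 218 CPM in WT and 264 and 261 CPM in KO (log2 fold change 0.26, edgeR adjusted p = 2.09e-10). Calm2, a calmodulin gene, had a log2 fold change of 0.096 (edgeR adjusted p = 2.29e-05) and Plcb1, a phospholipase C gene, one of 0.087 (edgeR adjusted p = 0.00276). Homer1 and Homer3 thus moved in opposite directions, with no overlap of genotypes for either.

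Of 36 genes related to the members by family or function, 33 were tested, of which 1 was lower, 9 were higher and 23 did not pass, with a median log2 fold change of 0.041. The shares over all genes tested were 3.19% lower and 3.35% higher. Neither Itpr2 nor Itpr3, the other inositol trisphosphate receptors, was called, with edgeR adjusted p of 0.676 and 0.592. Of the 2 other carbonic anhydrase-related proteins, Car10 rose by 0.11 on the log2 scale (edgeR adjusted p = 0.00556) and Car11 was not called. Car10 was not called without WT library 1 or without KO library 1 (edgeR adjusted p = 0.0844 and 0.0734). Among 6 transporters of the family of Slc1a6, the 1 that was lower was Slc1a3, the glutamate transporter of astrocytes and Bergmann glia. Slc1a3, also in the list of Bergmann glia markers, was at 612 and 614 CPM in WT and 565 and 579 CPM in KO (log2 fold change -0.10, edgeR adjusted p = 5.02e-05).

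The relatives of the G protein genes went up where they were called. Of 7 tested relatives of Rgs8 3 were higher and 4 did not pass. The largest of these rises was that of Rgs4, from 299 CPM in both WT libraries to 381 and 388 CPM in KO (log2 fold change 0.36, edgeR adjusted p = 9.88e-14). Rgs2 rose by 0.19 on the log2 scale (edgeR adjusted p = 0.000967) and Rgs16 by 0.20 (edgeR adjusted p = 0.0165). Rgs16 was not called without WT library 1, WT library 2 or KO library 2 (edgeR adjusted p = 0.063, 0.0726 and 0.15). Of 10 tested relatives of Gng13 7 did not pass and 3 were higher, namely Gng3 and Gng4, each with a log2 fold change of 0.14, and Gng7 with 0.11. The phosphatase inhibitor gene Ppp1r1b, which encodes DARPP-32, rose from 222 and 230 CPM to 258 and 253 CPM (log2 fold change 0.18, edgeR adjusted p = 7.93e-07). Its relative Ppp1r1a rose by 0.12 on the log2 scale (edgeR adjusted p = 0.0208), but was not called without WT library 1 or KO library 2 (edgeR adjusted p = 0.183 and 0.0668) or by DESeq2 (adjusted p = 0.0634). Gng7 and Ppp1r1b also stand in the list of 11 striatal projection neuron markers, of which 11 were called higher, with summed levels of 1210 and 1212 CPM in WT and 1415 and 1417 CPM in KO.

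**Figure D3:**
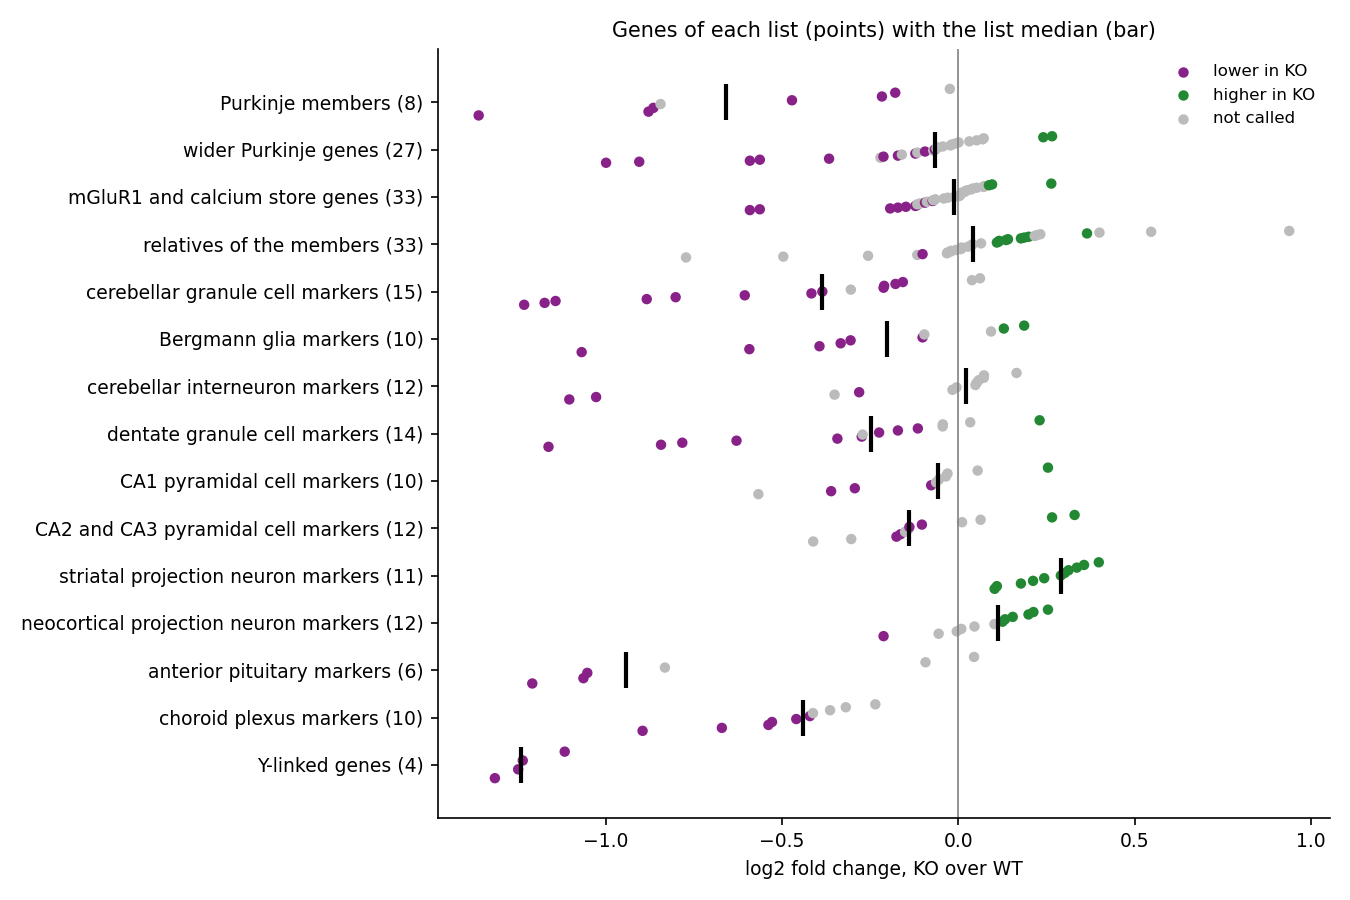
log2 fold change of KO over WT (horizontal axis) for every tested gene of each list (points, coloured by call), with the list median as a bar and the number tested in brackets. The 8 Purkinje cell genes have a median of -0.66, the cerebellar granule cell markers one of -0.39 and the striatal markers one of 0.29. The points of the Purkinje cell genes (-1.36 to -0.024) and of the granule cell markers (-1.23 to 0.062) cover much the same range.

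Markers of several other cell types moved with the Purkinje cell genes, and markers of others did not. Over all genes tested 3.19% were called lower and 3.35% higher. No gene of the marker lists was at 0 in all 4 libraries. Of 15 cerebellar granule cell markers 12 were lower and 3 did not pass, with a median log2 fold change of -0.39 and summed levels of 821 and 819 CPM in WT and 644 and 643 CPM in KO. The granule cell markers spread widely, from -1.23 for Cbln3, -1.17 for Fat2 and -1.14 for Gabra6 to 0.062 for Kcnk9. Of 10 Bergmann glia markers 6 were lower and 2 higher, with a median of -0.20 and summed levels of 859 and 866 CPM against 800.1 and 816 CPM. Of 12 markers of cerebellar interneurons 3 were lower and 9 did not pass, with a median of 0.022 and summed levels of 451 and 462 CPM against 445 and 459 CPM. The 3 lower were Slc6a5 (log2 fold change -1.10), Pax2 (-1.03) and Kit (-0.28). The interneuron sums overlapped between genotypes, unlike those of the granule cell and Bergmann glia markers. Abundant genes weigh most in such sums, for example Lgi2, with a WT mean of 100 CPM against 11.5 CPM for Slc6a5. Outside the cerebellum, 9 of 14 dentate granule cell markers were lower and 1 higher, with a median of -0.25 and summed levels of 897.4 and 885.6 CPM against 835.8 and 824.5 CPM. Of 10 choroid plexus markers 6 were lower and 4 did not pass, with a median of -0.44 and summed levels of 648 and 646 CPM against 451 and 444 CPM. Of 10 CA1 markers 3 were lower and 1 higher (median -0.059), and of 12 CA2 and CA3 markers 4 were lower and 2 higher (median -0.14). Neocortical markers went the other way more often, with 6 of 12 higher and 1 lower, and the striatal markers described above all rose. Of 11 anterior pituitary markers 6 were tested and 3 of them were lower (median -0.94), with summed levels of 63.7 and 63.9 CPM in WT and 31.5 and 31.0 CPM in KO. All 4 Y-linked genes examined were lower, with summed levels of 69.8 and 71.0 CPM in WT and 29.6 and 30.7 CPM in KO. The part of tissue make-up, and of the share of male tissue, in the fall of the Purkinje cell genes was not tested.

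For the 4 members called with a log2 fold change of at least 0.3 in size (Pcp2, Car8, Slc1a6 and Ppp1r17), the genes most like each over the 4 libraries were found by the root mean square distance between log2 CPM values, each centred on the mean of its gene, among 11456 named genes with a mean of at least 5 CPM. The 5 nearest to Pcp2 were Ddx3y, Cbln3, Kdm5d, Fat2 and Uty, at distances of 0.059 to 0.099. Cbln3 and Fat2 are cerebellar granule cell genes, and the other 3 are Y-linked genes transcribed in many cell types. Cbln3 was at 45.9 and 47.3 CPM in WT and 20.01 and 19.68 CPM in KO, and Ddx3y at 27.9 and 28.1 CPM against 11.95 and 11.63 CPM.

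The 3 nearest to Car8 were Slc4a5, a bicarbonate transporter gene of choroid plexus, Dsp, which encodes desmoplakin of dentate granule cells, and Neurod1, a transcription factor of granule cells, at distances of 0.032 to 0.050. Those nearest to Ppp1r17 were Slc4a5 again, the cytokine gene Il16 and Xdh, which encodes xanthine dehydrogenase, at distances of 0.043 to 0.072. Those nearest to Slc1a6 were Shisa6, an auxiliary protein of AMPA receptors, the desmosomal gene Pkp2 and Arrdc2, at distances of 0.023 to 0.026. With 4 libraries that fall into 2 genotypes, such a distance mainly reads the size of the difference between genotypes.

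**Figure D4:**
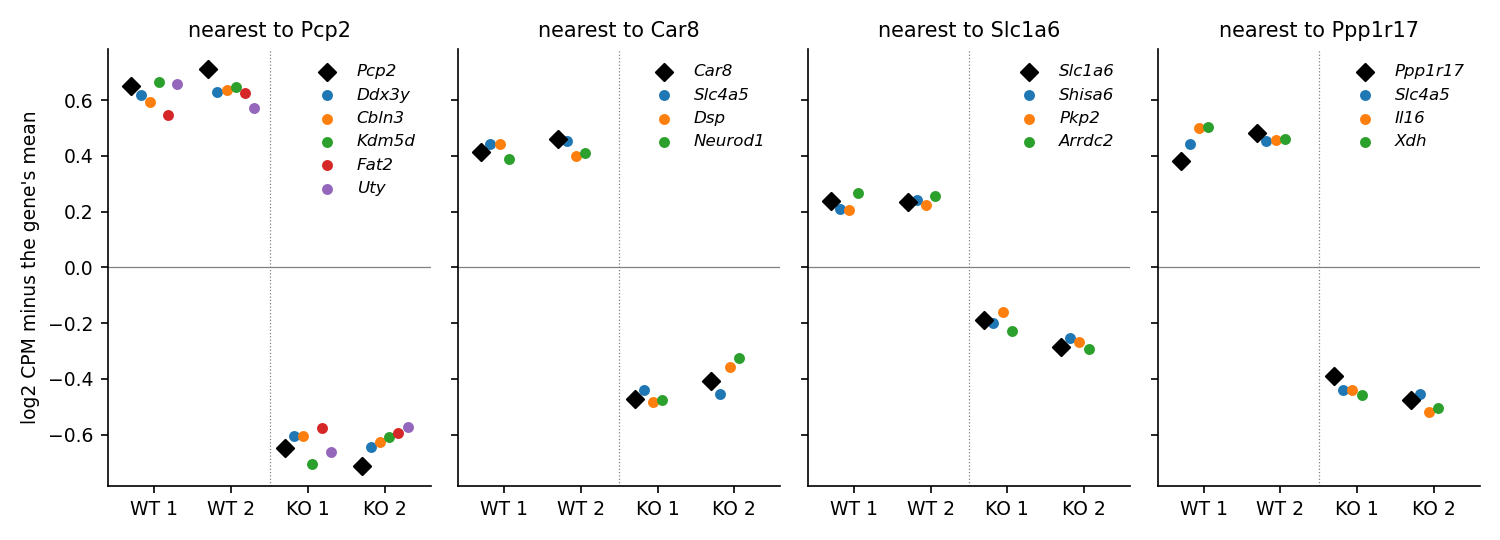
log2 CPM minus the mean of the gene over the 4 libraries (vertical axis) for 4 Purkinje cell genes (black diamonds) and the genes nearest to each (coloured points), by library (horizontal axis). In each panel all genes lie above 0 in both WT libraries and below 0 in both KO libraries. This follows from the choice of genes nearest to members that were called lower in KO.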

How the data were processed

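The deposited values are raw read counts per Ensembl mouse gene in 1 table with a column per library. The submitters' processing notes name the build GRCm39 and the tools featureCounts, DESeq2, STAR 2.6.1c and FastQC. What each did, whether counting used strand or multi-mapping reads, and which annotation it used: not given in the sources used here. Symbols were matched for 52081 of 55414 identifiers. Exon lengths and overlaps come from GENCODE M21 (GRCm38) and served only for names, lengths and neighbours.

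Counts were analysed across all genes in R 4.3.3 with edgeR 4.0.16: filterByExpr at a minimum count of 10 (21592 genes kept), TMM scaling (factors 0.997 to 1.005), then glmQLFit and glmQLFTest on genotype, with Benjamini-Hochberg adjustment over all genes tested. The standard error is the size of the log2 fold change over the square root of F. Alternatives used DESeq2 1.42.0 and limma 3.58.1. The procedure was also run on simulated counts, drawn independently for each library. These held no spread between animals, so that run cannot say whether the p-values allow for such spread. The members, lists and tests were chosen with earlier results of these data known. In each list at most 6 called genes are named, by smallest p, besides those said to be named for another reason. Relatives are named beside their member, including each one called. One gene that this rule names is not reported here. Libraries of 1 genotype varied by 2.56 (WT) and 2.62 (KO) times the Poisson variance, and by 1.29 and 1.32 times with counts halved, so they were not treated as 1 library.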

Additional observations from a re-analysis of the deposited data

How the results depend on the processing

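Over 14 alternatives (other scalings, filters and tools, halved counts, a replicate block, a stricter threshold and each library left out), 6 members were called lower in each, except 7 with no filter, where Skor2 passed (-0.85, edgeR adjusted p = 0.0473). DESeq2 gave Skor2 no adjusted p, and a filter at a mean CPM of 1 removed it. Gng13 ranged from -0.095 to 0.051 on the log2 scale and turned sign without WT library 1 (0.051) and without KO library 1 (0.028). Over all genes 1411 were called, 856 at an adjusted p under 0.01, 1011 by DESeq2 and 1064 to 1273 with a library left out. Genes lower among the 27 further Purkinje genes numbered 9 to 12, and 7 to 10 in the calcium route. Of 792 values for 61 other genes, 27 lost their call (10 genes) and 0 changed sign. With the replicate number as a replicate block, 1590 genes were called, 6 of them members called lower. Replicate differences of WT and KO correlated at 0.034 over 14638 genes. With counts halved, libraries of 1 genotype varied by 1.29 (WT) and 1.32 (KO) times the Poisson variance. Differences that are mostly counting noise would correlate little either way, so this value cannot decide whether libraries were paired. With 2 libraries a genotype, the spread rests on few values, and low genes such as Skor2 stay imprecise at this depth.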
